A study of Mus musculus with 18 samples.

Results

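The comparison set T-N1G cells against mock cells after 12 h in 1.0 µM MG132, a peptide aldehyde that blocks the proteasome. Both lines were immortalized mouse embryonic fibroblasts of the genotype MafF-/-::MafG-/-::MafK-/-, so the mock controls also lacked all 3 small Maf proteins. The T-N1G line also expressed T-N1G, a tethered heterodimer of Nrf1 and MafG, which its genotype label spells T-NG1. Of the 18 libraries of poly(A) RNA in the study, 3 T-N1G and 3 mock libraries had the 1.0 µM label and make up the comparison. The other 12 came from the same lines under vehicle or 0.3 µM MG132 for 12 h, with 3 libraries per group, and serve here only to show where 1.0 µM differed. All genes in the deposited table entered except 2 that the authors' quantifier marked as too deep to resolve in at least 1 library, out of 24318, and 12792 had enough fragments to be tested. The labels do not say how T-N1G was introduced, what drives it, whether either line is 1 clone, or whether replicates were separate cultures. The p-values therefore rest on library-to-library spread alone, which may be only technical, and T-N1G cannot be told apart from any other difference between the lines.

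Nrf1, the product of Nfe2l1, is a transcription factor of the CNC family that is made at the membrane of the endoplasmic reticulum and is normally taken out of it and destroyed by the proteasome. When the proteasome is inhibited, Nrf1 is extracted by the ATPase p97, stripped of its sugars by Ngly1, cut by the protease Ddi2, and reaches the nucleus, where it is known for raising the genes of the proteasome itself. CNC factors need a small Maf partner to bind DNA, at sequences called CNC-sMaf binding elements or antioxidant response elements. The related factor Nrf2, which Keap1 holds in check, uses the same partners and elements and is known for the genes of glutathione, NADPH and xenobiotic metabolism.

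The 6 libraries held 18164382 to 20739895 fragments assigned to genes. Levels are given as CPM, fragments of a gene scaled to a fixed library size, with TMM factors, which correct for differences in library composition, and differences as log2 fold changes of T-N1G over mock with their standard error (SE). A gene passed the test when its p from edgeR's quasi-likelihood test, adjusted by Benjamini-Hochberg over the 12792 genes, was under 0.05. Replicates at 1.0 µM were more variable than in the other groups. Their median SD over genes was 0.142 (log2) for mock and 0.175 for T-N1G cells, against 0.0471 to 0.0737 in the other 4 groups. The first principal component held 79.4% of the variance and separated the lines, and the second, with 11.3%, ordered libraries of the same number alike in both lines. Fibroblast markers summed to 11362 to 15697 CPM in mock and 10088 to 11684 CPM in T-N1G libraries, with 15 of 16 markers detected and Lum at 0. Leukocyte markers summed to 10.2 to 13.5 CPM in mock and 16.2 to 18.7 CPM in T-N1G libraries, with no overlap. Tyrobp was at 0 and 9 of the 12 were under 1 CPM in both lines, and of 4 tested the receptor gene Csf1r was higher, at 0.763, 0.152 and 0.467 against 4.55, 1.25 and 6.23 CPM (log2 3.12, SE 0.68, adjusted p = 0.00641), a call lost without both libraries numbered 3.

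Both parts of the transgene were high in every T-N1G library. Mafg (mm9 chr11:120489667-120494861) stood at 0.927, 1.26 and 0.980 CPM in the mock libraries and 4024, 2818 and 2589 CPM in the T-N1G libraries (log2 11.53, SE 0.31, adjusted p = 4.02e-07). Nfe2l1 (chr11:96678728-96691282), which the genotype does not list as deleted, stood at 311, 281 and 320.1 CPM in the mock libraries and 20416, 14264 and 14077 CPM in the T-N1G libraries (log2 5.74, SE 0.24, adjusted p = 2.39e-06). T-N1G library 1 held the highest level of both. The quantifier marked Nfe2l1 as failed in all 3 T-N1G libraries at 1.0 µM, and in 7 of the 18 libraries in all, while still listing its fragments, from which these values come. They join message of the transgene and of the cells' own gene. Together Nfe2l1 and Mafg took 1.68% to 2.31% of the fragments of a T-N1G library and 0.0293% to 0.0332% of a mock library. The other deleted small Maf genes still gave reads, at 44.2, 32.6 and 34.9 CPM in the mock libraries and 43.1, 22.9 and 34.7 CPM in the T-N1G libraries for Maff and at 7.91, 7.68 and 5.55 against 6.36, 5.53 and 5.19 CPM for Mafk. Neither differed between the lines by more than the spread (Maff log2 -0.15, adjusted p = 0.614; Mafk log2 -0.31, adjusted p = 0.245). Which part of each gene the alleles remove is not given in the sources used here, so these reads do not check the deletions.

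The lines differed in a large part of the transcriptome. Of the 12792 genes tested, 5715 (44.7%) passed, 2851 higher in T-N1G cells (22.3%) and 2864 lower (22.4%). A difference of at least 2-fold was reached by 1249 higher (9.76%) and 1098 lower genes (8.58%). In 27.7% of the genes all 3 T-N1G libraries lay above all 3 mock libraries, and in 27.9% they lay below. The median log2 difference over all genes was -0.02. With the shared replicate number as a block, the lower calls rose to 4344, more than 1.5 times the number without it, and the higher calls to 4018. Against these shares, every count for a group of genes is read.

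**Figure D1:**
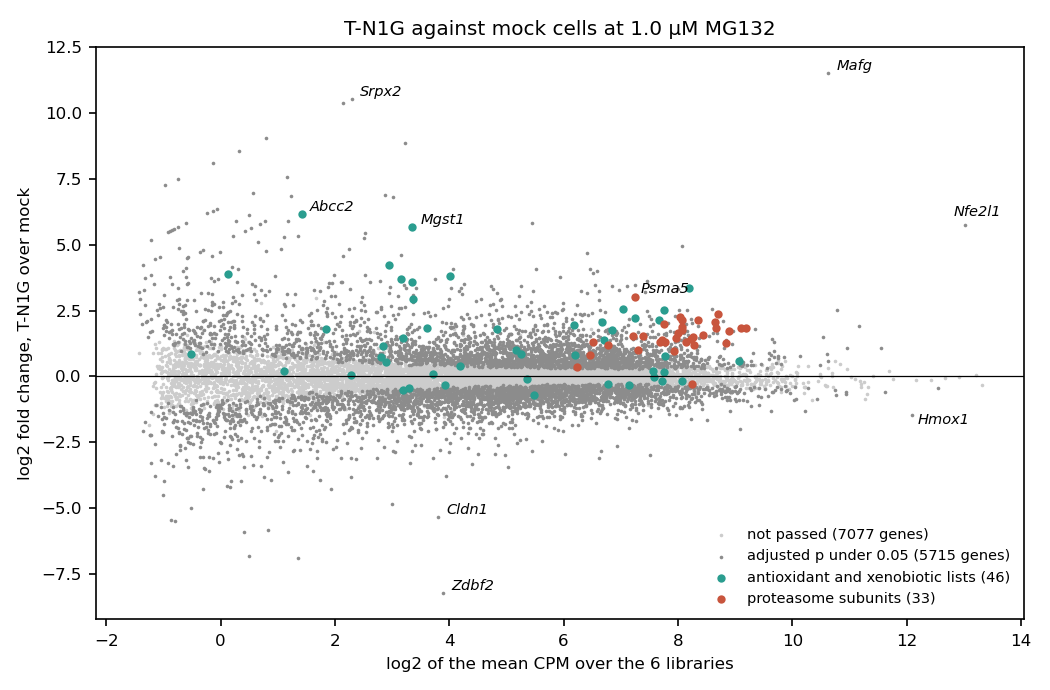
Log2 fold change of T-N1G over mock (vertical) against the log2 mean CPM of the 6 libraries (horizontal), 1 point per tested gene, with the 5715 genes past the test in darker grey, the 33 proteasome subunits in red and 46 antioxidant and xenobiotic genes in green. The red points form a band between 0.80 and 3.03 except for Shfm1 and Psmd8, and the green points reach from -0.72 to 6.17.

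Proteasome subunit genes were higher in T-N1G cells across the whole particle. The 26S proteasome is a barrel of α and β rings, which holds the protease sites, capped by a regulatory particle with an ATPase ring and a lid. Of its 33 constitutive subunit genes, 31 were higher and none lower, with a median log2 difference of 1.53, a 2.90-fold higher level, and 29 reached 2-fold. Their fragments made up 0.430% to 0.491% of a mock library and 1.23% to 1.51% of a T-N1G library. In bulk RNA, more RNA per cell and more cells of a kind cannot be told apart. The 31 higher calls held under each alternative tried, including each library left out, and were 32 with the replicate block, in which Psmd8 was lower.

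The genes of the α ring, which gates the entry to the barrel, included the largest difference of all 33. All 7 were higher, from log2 1.30 to 3.03 with a median of 1.89. Psma5 (chr3:108059844-108082870) stood at 31.7, 34.1 and 34.01 CPM in the mock libraries and 319.8, 246 and 249.6 CPM in the T-N1G libraries, which is 8.17-fold (log2 3.03, SE 0.14, adjusted p = 3.80e-06). Its T-N1G values lay far above the mock values, which were nearly equal among themselves. Psma1 followed at 91.6, 94.7 and 85.3 against 529, 401 and 377 CPM (log2 2.27, SE 0.15, adjusted p = 1.47e-05). Psma7 stood at 84.5, 91.8 and 84.3 against 399, 337 and 304 CPM (log2 2.00, SE 0.13, adjusted p = 1.44e-05). None of these 3 genes overlapped between the lines.

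All 7 genes of the β ring, which carries the catalytic sites, were also higher, from log2 0.80 to 2.14 with a median of 1.31. Psmb4, a structural subunit, stood at 107, 98.2 and 92.4 CPM in the mock libraries and 536, 395 and 376 CPM in the T-N1G libraries (log2 2.14, SE 0.16, adjusted p = 2.25e-05). The lowest difference of the ring was that of Psmb5, which encodes the chymotrypsin-like subunit that MG132 mainly blocks, at 67.99, 69.2 and 54.5 against 131, 108 and 95.9 CPM (log2 0.80, SE 0.15, adjusted p = 0.00264). Psmb2 was next lowest, at log2 0.96 (adjusted p = 0.00129). The 5 others reached 2-fold.

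In the regulatory particle, all 6 ATPase genes were higher, with a median of 1.60. Psmc3 led them at 184, 191 and 155 CPM in the mock libraries and 797, 594 and 518 CPM in the T-N1G libraries (log2 1.85, SE 0.18, adjusted p = 8.57e-05), and Psmc2 had the smallest difference, at 293, 272 and 252 against 719, 622 and 598 CPM (log2 1.25, SE 0.13, adjusted p = 0.000123). Of the 13 lid and scaffold genes, 11 were higher (median 1.54). Psmd11, a lid subunit, stood at 130.1, 146 and 133 against 749, 629 and 713 CPM (log2 2.35, SE 0.13, adjusted p = 6.49e-06). The ubiquitin receptor Psmd4 stood at 171, 157 and 139 against 791, 573 and 569 CPM (log2 2.05, SE 0.17, adjusted p = 3.40e-05). Psmd14, the deubiquitinase of the lid, was higher by less, at 103, 109 and 100.5 against 225, 194 and 210.1 CPM (log2 1.01, SE 0.11, adjusted p = 0.000158). The remaining pair did not pass. Shfm1, the smallest lid subunit, stood at 78.6, 70.8 and 47.2 against 111, 87.3 and 55.6 CPM (log2 0.37, adjusted p = 0.296), and Psmd8 at 438, 298 and 267 against 349, 245 and 215 CPM (log2 -0.31, adjusted p = 0.298), with overlapping groups in both.

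**Figure D2:**
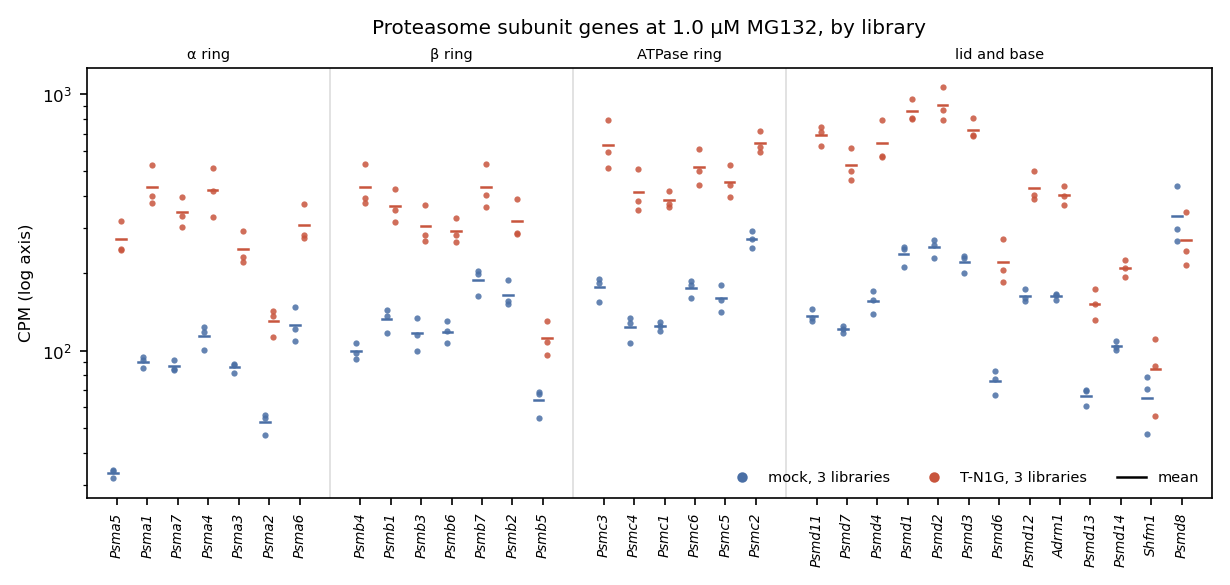
CPM on a log axis of the 33 proteasome subunit genes in each library, mock in blue and T-N1G in red, with short lines at the means of 3 libraries and genes ordered within each ring by fold change. Red points lie above blue ones for 31 genes, and the groups overlap for Shfm1 and Psmd8.

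The subunit genes were not raised in proportion. By FPKM, which corrects for transcript length, Psma5 had the lowest mean of the 33 in mock cells (34.0) and the rank of 26 in T-N1G cells (275). Psmd11 moved from the rank of 24 to 8 and Psma1 from 26 to 12. Psmd8 went the other way, from 2 to 27, and Shfm1 from 4 to 23. The spread of the 33 log2 FPKM values was 0.747, 0.661 and 0.629 (SD) in the mock libraries and 0.624, 0.584 and 0.609 in the T-N1G libraries. All 3 T-N1G libraries thus lay below all 3 mock libraries, by a narrow margin at the nearest pair, and this difference was not tested. Median FPKM of the 33 was 122, 125 and 112 in mock against 428, 349 and 335 in T-N1G libraries. T-N1G library 1 held the highest level among the T-N1G libraries for 33 of 33 subunits, while the same library was the highest for 31.0% of all tested genes and 48.2% of the higher genes. Nfe2l1 and Mafg were also highest in that library, and its part in this was not tested. Without that library 31 subunits were still higher.

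Genes that build or serve the proteasome were split. Of 8 tested genes for assembly chaperones, 4 were higher and none lower (median 0.61). Psmd5, a chaperone of the ATPase base, stood at 46.3, 59.3 and 54.5 against 321, 278 and 292 CPM (log2 2.48, SE 0.13, adjusted p = 6.49e-06). Pomp, which matures the catalytic barrel, stood at 64.1, 52.6 and 45.1 against 181, 141 and 101 CPM (log2 1.39, SE 0.22, adjusted p = 0.00114). Psmd9 and Psmg3 were higher by log2 1.19 and 1.07. With the replicate block, 1 of the 8 was lower. Among 18 activators, shuttle factors and associated enzymes, 11 were higher and 3 lower (median 0.54). The proteasome-bound deubiquitinase Usp14 stood at 98.5, 114 and 111 CPM in the mock libraries and 531, 467 and 486 CPM in the T-N1G libraries (log2 2.20, SE 0.12, adjusted p = 7.36e-06). Zfand5, which binds the proteasome under stress, stood at 72.2, 62.4 and 63.5 against 322, 247 and 334 CPM (log2 2.19, SE 0.15, adjusted p = 1.47e-05). AI314180, the gene of the proteasome scaffold ECM29, was higher by log2 1.77, Psme4, the activator PA200, by 1.54, and the ubiquitin shuttle Ubqln2 by 1.40. A second shuttle of the same family went the other way, Ubqln4 at 102, 100.3 and 92.6 against 48.1, 68.2 and 60.5 CPM (log2 -0.74, SE 0.14, adjusted p = 0.00291). Only 1 of the 3 lower calls was left without mock library 1, without mock library 3 or without T-N1G library 1.

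The immunoproteasome subunits were measured for contrast. Of 4 tested genes of the immunoproteasome and antigen transport, 1 passed, the peptide transporter Tap2, at 11.6, 5.26 and 14.7 against 54.8, 30.98 and 55.2 CPM (log2 2.15, SE 0.39, adjusted p = 0.00336), and 2 passed with the replicate block. Of 5 tested genes for ubiquitin precursors and activating enzymes, none was higher and 1 lower, a call lost in 6 alternatives. With the block, 1 was higher and 2 were lower.

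The p97 machinery, which pulls ubiquitinated proteins, Nrf1 among them, out of membranes and complexes, was higher in most of its genes. Of 19 genes for p97, its cofactors and the processing of Nrf1, 12 were higher and 1 lower (median 0.66). Vcp, which encodes p97, stood at 803, 849 and 715 CPM in the mock libraries and 2549, 1954 and 2093 CPM in the T-N1G libraries (log2 1.48, SE 0.16, adjusted p = 0.000136). The genes of its substrate-recruiting pair were alike, with Nploc4 at 200.2, 185 and 186 against 629.6, 530.4 and 607 CPM (log2 1.63) and Ufd1l at log2 1.60 (adjusted p = 1.93e-05). The p97 cofactor Nsfl1c was higher by log2 1.69. Ngly1, which deglycosylates Nrf1, stood at 5.02, 4.35 and 4.99 against 16.6, 9.26 and 17.97 CPM (log2 1.61, SE 0.26, adjusted p = 0.00112), so its lowest T-N1G value was still above the mock range. Ddi2, whose product cuts Nrf1, was the lower gene, at 72.7, 74.6 and 87.3 against 52.4, 51.1 and 60.8 CPM (log2 -0.52, SE 0.13, adjusted p = 0.00944). It lies on chromosome 4, where a larger share of genes was lower than elsewhere, 33.9% against 22.4% over all chromosomes.

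Nrf2 and its inhibitor were both higher. Nfe2l2, the Nrf2 gene, stood at 38.9, 26.6 and 47.5 against 94.1, 77.1 and 96.6 CPM (log2 1.24, SE 0.20, adjusted p = 0.00126). Keap1 stood at 19.1, 24.5 and 26.5 against 105, 103 and 115 CPM (log2 2.20, SE 0.15, adjusted p = 1.39e-05). No T-N1G library overlapped the mock range for either gene.

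Genes of glutathione, NADPH and xenobiotic metabolism, for which Nrf2 is known, were higher in much of their number. The haem oxygenase gene Hmox1, which was lower in T-N1G cells, is counted with iron and haem below and not here. The 4 lists covered glutathione and thioredoxin, glutathione S-transferases, NADPH production with the pentose phosphate pathway, and quinone and xenobiotic handling. Of their 46 tested genes, 29 were higher, of which 22 by at least 2-fold, and 1 was lower, with a median of 0.92. The higher count ran from 27 to 29 when each library was left out and was 32 with the replicate block. The lower call, Pgls, was lost in 5 of 6 of those and 2 genes of its list were lower in the other, without T-N1G library 2.

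In the glutathione and thioredoxin list 10 of 13 genes were higher and none lower (median 1.39), and 1 was lower with the block or without T-N1G library 2. Srxn1, which repairs peroxiredoxins, stood at 57.6, 46.2 and 54.7 CPM in the mock libraries and 612, 386 and 609 CPM in the T-N1G libraries (log2 3.34, SE 0.20, adjusted p = 1.06e-05). Gclm, the modifier subunit of the enzyme that limits glutathione synthesis, stood at 37.9, 38.1 and 37.6 against 236, 198 and 240.2 CPM (log2 2.57, SE 0.12, adjusted p = 3.85e-06). Prdx1, a peroxiredoxin, stood at 83.7, 74.1 and 68.9 against 407, 295 and 297 CPM (log2 2.14, SE 0.16, adjusted p = 2.23e-05). The cystine importer Slc7a11 and the glutathione reductase gene Gsr were higher by log2 2.08 and 1.95. Gpx1, Gpx4 and Txn1 did not pass.

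Glutathione S-transferases, which join glutathione to toxic compounds, included genes near silent in mock cells. Of 10 tested, 7 were higher and none lower (median 2.06), 1 was lower with the block, and without a filter on low counts 11 were higher. Mgst1, a membrane-bound transferase, stood at 0.273, 0.202 and 0.653 CPM in the mock libraries and 20.2, 16.5 and 23.5 CPM in the T-N1G libraries (log2 5.68, SE 0.35, adjusted p = 1.06e-05). Gsta4 was higher by log2 4.24 and Gstm1 stood at 2.13, 2.68 and 2.24 against 16.4, 18.7 and 19.6 CPM (log2 2.95, SE 0.18, adjusted p = 1.07e-05). Members of this family are close in sequence, so reads can be split between them. Of 8 enzymes that make NADPH, the electron donor of these reactions, or serve the pentose phosphate pathway, 5 were higher and 1 lower (median 0.87). With the block, 3 were lower. Me1, the malic enzyme, stood at 82.3, 56.8 and 55.99 against 409, 347 and 348 CPM (log2 2.50, SE 0.18, adjusted p = 1.72e-05). In the pentose phosphate pathway Taldo1 was higher by log2 2.23, Pgd by 1.77, G6pdx by 0.98 and Tkt by 0.77.

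Of 15 genes for quinones, carbonyls and xenobiotics, 7 were higher and none lower (median 0.41), with 9 higher and 2 lower under the block and 1 lower without T-N1G library 2. Nqo1, the classical quinone reductase, stood at 1.53, 1.62 and 1.54 CPM in the mock libraries and 19.2, 17.7 and 19.5 CPM in the T-N1G libraries (log2 3.58, SE 0.17, adjusted p = 3.85e-06). Osgin1 was higher by log2 3.80. The efflux pump gene Abcc2 stood at 0.109, 0 and 0.0933 against 3.79, 6.28 and 5.77 CPM (log2 6.17, SE 0.51, adjusted p = 3.71e-05). The lines did not overlap in any of these 3 genes, and all 3 were low in mock cells.

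**Figure D3:**
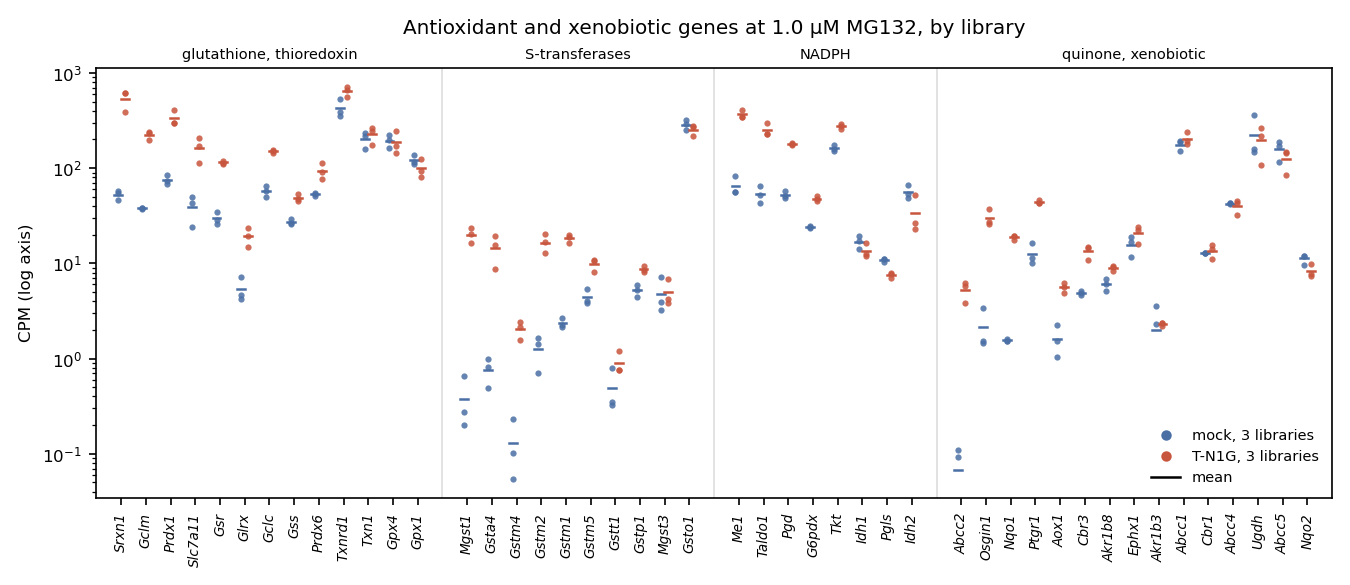
CPM on a log axis of 46 antioxidant and xenobiotic genes in each library, mock in blue and T-N1G in red, with short lines at the means. A library at 0, which is 1 mock library for Abcc2 and 1 for Akr1b3, cannot be drawn on this axis but counts in the mean; the red points lie above the blue for all 29 genes that were higher, from Mgst1, Gsta4 and Abcc2 under 1 CPM in mock cells to Txnrd1 at 353 to 537 CPM.

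Genes of iron and haem went in both directions. Of 18 tested, 10 were higher and 3 lower (median 0.52), and 1 of the lower calls was left without mock library 3 or T-N1G library 1. Blvrb, a biliverdin and flavin reductase, stood at 7.58, 9.15 and 8.31 CPM in the mock libraries and 126, 98.3 and 120.0 CPM in the T-N1G libraries (log2 3.78, SE 0.15, adjusted p = 1.96e-06). The haem transporter Slc48a1 stood at 20.1, 29.5 and 21.2 against 279, 214 and 268 CPM (log2 3.42, SE 0.19, adjusted p = 6.49e-06). Both ferritin chains, which store iron, were higher, Fth1 at 268, 326 and 273 against 999.9, 1091 and 948 CPM (log2 1.81, adjusted p = 2.47e-05) and Ftl1 by log2 1.08. Hmox1, the haem oxygenase that supplies biliverdin to these reductases, was high in all 6 libraries and lower in T-N1G cells, at 6660.1, 4876 and 7733 against 2054, 1752 and 3175 CPM (log2 -1.46, SE 0.26, adjusted p = 0.00206). The 3 T-N1G values of Hmox1 all lay under the 3 mock values. Of 5 genes for metallothioneins and zinc, 3 were higher. Mt3 had no fragment in any mock library and 101 in the T-N1G libraries, at least 35.4-fold higher against a floor of 3 fragments over the group.

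Promoter sequences were read from RefSeq (GRCm38.p6, 250 bases before to 50 after each start) to show the CNC-sMaf motif where it stands near these genes. A promoter was found for 10171 tested genes and for 27 of the 33 subunits. The core motif TGACNNNGC, searched on both strands, stood in at least 1 promoter of 1729 of the 10171 (17.0%) and in 12.4% of all 32851 promoters in the table. It stood in 216 of 1013 genes that were at least 2-fold higher (21.3%), in 115 of 845 that were at least 2-fold lower (13.6%) and in 6 of 27 subunits (22.2%). The longer form TGACTCAGC, which is contained in the core motif, stood in 18 of the 1013 (1.78%), 7 of the 845 (0.828%), 61 of the 10171 (0.600%) and none of the 27 subunits, against 0.454% of all promoters. A match is a run of letters, not a bound site. Upstream matches in 5 of those subunit genes are printed because the 31 higher subunits carry the main difference, with the motif in capitals and the gene's strand read 5′ to 3′, where a match on the other strand reads GC first.
Psmb5: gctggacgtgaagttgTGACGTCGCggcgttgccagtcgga
Psmb6: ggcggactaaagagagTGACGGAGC
Psmc6: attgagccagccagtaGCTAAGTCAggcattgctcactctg
Psmd12: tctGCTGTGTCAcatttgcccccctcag
Adrm1: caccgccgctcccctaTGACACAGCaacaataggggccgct
They lie at chr14:54618018-54618058 (- strand), chr11:70525332-70525356 (+ strand), chr14:45329581-45329621 (+ strand), chr11:107479278-107479305 (+ strand) and chr2:180171410-180171450 (+ strand), in a build other than the mm9 positions of the genes given elsewhere. The next set shows such matches in 5 higher genes of the antioxidant lists, for comparison of the free letters, and in Srpx2, the gene with the largest bound on its fold of all that were named.
Gclm: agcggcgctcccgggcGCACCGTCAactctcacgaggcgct
Prdx1: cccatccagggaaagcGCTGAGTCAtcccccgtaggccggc
Mgst1: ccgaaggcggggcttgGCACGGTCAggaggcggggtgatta
G6pdx: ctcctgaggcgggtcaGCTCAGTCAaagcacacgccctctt
Abcc2: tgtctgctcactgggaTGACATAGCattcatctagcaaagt
Srpx2: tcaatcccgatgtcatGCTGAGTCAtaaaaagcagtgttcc
They lie at chr3:122245407-122245447 (+ strand), chr4:116685450-116685490 (+ strand), chr6:138140455-138140495 (+ strand), chrX:74428913-74428953 (- strand), chr19:43782194-43782234 (+ strand) and chrX:133908348-133908388 (+ strand). Prdx1 and Srpx2 hold the longer form, and the others differ from it inside the 3 free letters of the core. Of the 6 subunits with a match, Shfm1, which did not pass, has it after the start and is not printed. Psma5, the subunit of largest fold, is not among the 6. Matches also stood upstream of Ugdh (log2 -0.17) and Abcc4 (log2 -0.09), antioxidant-list genes that did not pass.

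Autophagy genes, which serve the other route of protein disposal, fell on both sides. Of 22 tested, 9 were higher and 5 lower (median 0.21), and 5 were higher without both libraries numbered 3. Sqstm1, the gene of the cargo receptor p62, stood at 945, 984 and 969.7 CPM in the mock libraries and 3935, 3466 and 3502 CPM in the T-N1G libraries (log2 1.91, SE 0.14, adjusted p = 2.15e-05). The receptor genes Tax1bp1 and Nbr1 were higher by log2 1.39 and 0.64. The ATG8-family genes, whose products coat the autophagosome, went both ways. Gabarapl1 stood at 86.4, 74.4 and 70.5 against 544, 407 and 374 CPM (log2 2.52, SE 0.17, adjusted p = 1.47e-05). Map1lc3a stood at 52.02, 44.2 and 39.8 against 22.9, 23.2 and 19.01 CPM (log2 -1.06, SE 0.15, adjusted p = 0.000549), Map1lc3b was at log2 -0.61 and Gabarap at log2 -0.57, and all 3 passed. Tfeb, a regulator of lysosome genes, was lower at 6.87, 7.48 and 5.79 against 3.38, 3.20 and 4.31 CPM (log2 -0.88, SE 0.21, adjusted p = 0.00784). Of 31 lysosomal genes 11 were higher and 5 lower (median -0.11), led by the proton pump gene Atp6v0a1 at 18.3, 29.98 and 31.8 against 136, 115 and 159 CPM (log2 2.36, SE 0.22, adjusted p = 6.95e-05) and the glucosidase gene Gaa at log2 2.11. The lower lysosomal calls fell to 1 without mock library 2, 2 without T-N1G library 1 and 3 without T-N1G library 3, and were 8 with the block.

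Chaperone genes showed no common direction. Of 28 heat shock proteins and co-chaperones, 4 were higher and 5 lower (median -0.03), 8 and 9 with the block. Without mock library 1 they were 2 and 3, and without mock library 2 the lower count was 3. Fkbp4, a partner of Hsp90, stood at 448, 518 and 395 CPM in the mock libraries and 142, 174 and 130.4 CPM in the T-N1G libraries (log2 -1.61, SE 0.16, adjusted p = 8.61e-05), and the Hsp110-family gene Hspa4l was at log2 -1.60. Hsf2, a heat shock factor, was higher by log2 1.32. Hspa1a, the inducible Hsp70, stood at 1012, 723 and 602 against 1546, 786 and 762 CPM and did not pass (adjusted p = 0.312). In the unfolded protein response of the endoplasmic reticulum 3 of 23 genes were higher and 3 lower (median 0.01), 8 and 7 with the block. Without T-N1G library 3, 5 were higher, and without mock library 1 none was lower. Hspa5, the gene of the chaperone BiP, stood at 2531, 1663 and 1594 against 5752, 3417 and 3037 CPM (log2 1.08, SE 0.28, adjusted p = 0.0125), with wide spread in both groups and no overlap.

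The ATF4-led integrated stress response, which raises amino acid transport and synthesis under stress, was lower in many of its genes. Of 33 tested, 15 were lower and 5 higher (median -0.37), 21 and 6 with the block. The higher count was 3 without mock library 2, without T-N1G library 1 or without T-N1G library 3. Stc2, a secreted stress protein, stood at 20.99, 18.2 and 19.4 CPM in the mock libraries and 2.92, 2.004 and 4.73 CPM in the T-N1G libraries (log2 -2.60, SE 0.28, adjusted p = 0.000145). Pycr1 and Aldh18a1, enzymes of proline synthesis, were at log2 -1.58 and -1.01. Chac1, which breaks down glutathione, stood at 43.2, 76.6 and 64.8 against 22.7, 31.3 and 31.7 CPM (log2 -1.11, SE 0.22, adjusted p = 0.00341). The tRNA ligase genes Aars and Wars went the other way, higher by log2 0.77 and 0.50. Atf4 itself was also higher, at 278, 268 and 345 against 389, 367 and 453 CPM (log2 0.44, SE 0.14, adjusted p = 0.0331), a call lost in 5 alternatives.

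Apoptosis genes that passed were mainly lower. Of 19 p53 target genes 9 were lower and 1 higher (median -0.55), and of 13 tested BCL2-family genes 7 were lower and 1 higher (median -0.55). The lists share Pmaip1, Bbc3 and Bax. Pmaip1, the gene of the killer protein NOXA, stood at 1009, 877 and 737 CPM in the mock libraries and 265, 204 and 181 CPM in the T-N1G libraries (log2 -2.01, SE 0.18, adjusted p = 6.17e-05). Bbc3, the gene of PUMA, was at log2 -1.01, and Bok at 11.9, 13.4 and 12.3 against 3.62, 4.01 and 3.999 CPM (log2 -1.69, SE 0.17, adjusted p = 8.99e-05). Genes of survival proteins were lower too, Bcl2 at log2 -1.52 and Bcl2l1, which encodes BCL-xL, at log2 -1.14. The effector gene Bak1 was the higher one, at 72.1, 73.9 and 70.8 against 156, 148 and 154 CPM (log2 1.08, SE 0.10, adjusted p = 6.98e-05). Plk2, a kinase gene under p53, was at log2 -1.20, and Gadd45a was the higher p53 target, at log2 1.03.

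Cell cycle genes that passed were mainly lower, where 22.4% of all genes tested were lower, in counts that moved with the libraries used. Of 24 genes of DNA replication and the G1/S step 7 were lower and none higher (median -0.36), 16 lower and 1 higher with the block, and 12 lower without T-N1G library 2. Ccnd1, the cyclin that starts the cycle, stood at 105, 150.2 and 91.8 CPM in the mock libraries and 11.4, 23.6 and 9.50 CPM in the T-N1G libraries (log2 -2.96, SE 0.37, adjusted p = 0.000783). Ccne1 and Ccne2, the cyclins of S phase entry, were at log2 -1.18 and -1.33. Of 25 genes of mitosis 12 were lower and 1 higher (median -0.38). The lower mitotic count was 7 without mock library 2, 6 without T-N1G library 1 or without T-N1G library 3, and 4 without both libraries numbered 3, while 3 were higher without T-N1G library 3 and 4 with the block. Ube2c and Cdc20, which drive exit from mitosis, were at log2 -1.32 and -1.01. The checkpoint gene Bub1b was the exception at 53.8, 66.2 and 50.9 against 243, 224 and 166 CPM (log2 1.89, SE 0.17, adjusted p = 6.16e-05).

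Genes of the extracellular space and of inflammation fell on both sides. Of 20 tested inflammatory genes 6 were lower and 1 higher, 10 and 4 with the block, and 2 were higher without mock library 1 or T-N1G library 2. Tnfaip3, a brake on NF-kB, was at log2 -1.96 and the chemokine gene Cxcl12 stood at 688, 628 and 747 against 216, 322 and 291 CPM (log2 -1.32, SE 0.17, adjusted p = 0.000337). Il1a was the higher one at log2 5.09. Of 17 matrix proteases and inhibitors 6 were lower and 1 higher, with 2 higher without mock library 3 or T-N1G library 3 and 3 with the block. The lower ones included Mmp10 at log2 -2.69 and the urokinase gene Plau at log2 -1.19. Of 44 collagens and matrix proteins 12 were higher and 4 lower, 17 and 10 with the block. The higher matrix count was 7 without mock library 1 or T-N1G library 1. Epithelial markers summed to 342 to 484 CPM in mock and 64.0 to 86.9 CPM in T-N1G libraries, mainly through Krt19, a keratin gene on chromosome 11, at 293, 404 and 276 against 38.3, 50.9 and 33.1 CPM (log2 -2.99, SE 0.21, adjusted p = 1.72e-05). Of the 12 epithelial markers, 5 were under 1 CPM in every library, Epcam, Krt5, Cldn3, Cldn7 and Esrp1. The others, Cdh1, Krt8 and Krt18 among them, reached 1 CPM in at least 1 library, and 4 to 7 markers did so in each library.

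Mitochondrial genes that passed were mainly higher, where 22.3% of all genes tested were higher and 22.4% lower. Of 76 genes for mitochondrial ribosomal proteins 27 were higher and 11 lower (median 0.19), and the lower count was 7 without mock library 2 and 6 without T-N1G library 1. Mrpl47 stood at 12.8, 17.7 and 13.3 against 46.1, 42.8 and 38.2 CPM (log2 1.53, SE 0.16, adjusted p = 0.000134). Of 73 subunits of oxidative phosphorylation 19 were higher, a share close to that over all genes, 1 was lower and 53 did not pass (median 0.26). With the block 36 were higher and 4 lower. With each library left out 13 to 29 were higher, the 29 without T-N1G library 3. The lower call was lost without mock library 2, T-N1G library 1 or T-N1G library 3. Of 81 cytosolic ribosomal proteins 3 were higher and 5 lower (median -0.16), while 5 were higher and 37 lower with the block. The lower count was 1 without mock library 1, mock library 2 or T-N1G library 3, and 2 without T-N1G library 1. Cytosolic ribosomal proteins took 4.65% to 5.56% of mock and 3.76% to 4.82% of T-N1G fragments, ranges that overlap.

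**Figure D4:**
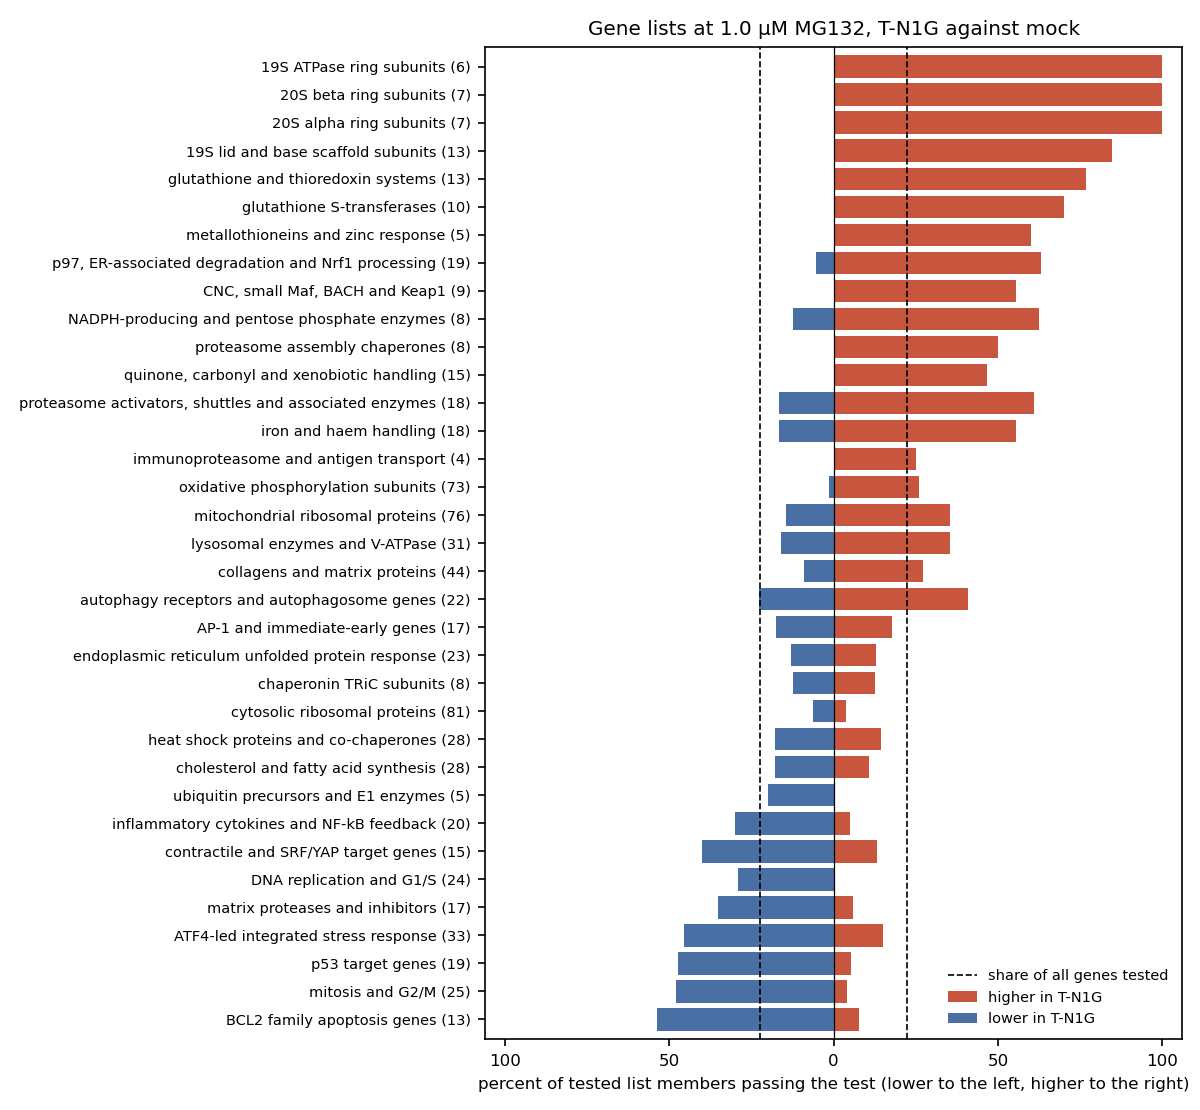
Percent of tested members passing the test in each of 35 gene lists, higher in T-N1G to the right and lower to the left, with the number tested in brackets and dashed lines at 22.3% and 22.4%, the shares over all genes. The 4 proteasome rings reach from 84.6% to 100% higher, and the lists of p53 targets, the BCL2 family and mitosis extend farthest to the left.

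The largest differences were in genes close to silent in 1 of the lines. Srpx2, which encodes a secreted sushi-repeat protein, stood at 0, 0 and 0 against 8.51, 8.88 and 12.1 CPM, at least 189.9-fold higher against the floor of 3 fragments over the group. Sstr5, a somatostatin receptor gene, stood at 0, 0 and 0 against 9.85, 4.28 and 12.5 CPM, at least 171.0-fold higher. Nlrp4e had 2 fragments in all mock libraries together and 1029 in T-N1G cells, a ratio of 541 with a 95% counting interval of 149 to 4472. Heph, a copper oxidase that serves iron export, stood at 0.327, 0.0506 and 0.0467 against 18.5, 14.03 and 15.5 CPM (log2 6.82, SE 0.43, adjusted p = 1.22e-05). Among genes detected in all 6 libraries, Fam13a stood at 1.09, 1.57 and 1.87 against 86.4, 76.3 and 95.4 CPM (log2 5.82, SE 0.21, adjusted p = 1.96e-06) and Map1a, a microtubule-associated protein gene, at 12.3, 17.1 and 21.7 against 509.7, 391 and 667 CPM (log2 4.93, SE 0.28, adjusted p = 9.48e-06). Dync1h1, the heavy chain of the dynein motor, was already abundant and stood at 502, 434 and 638 against 3038, 2370.2 and 3589.9 CPM (log2 2.51, SE 0.21, adjusted p = 4.18e-05).

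In the lower direction Zdbf2 stood at 41.6, 15.5 and 31.6 CPM in the mock libraries and 0.0583, 0.163 and 0.0519 CPM in the T-N1G libraries (log2 -8.24, SE 0.56, adjusted p = 2.06e-05). The lines were also apart in it without inhibitor, at log2 -10.30 under vehicle. Cldn1, a tight junction gene, stood at 11.1, 38.3 and 32.6 against 0.350, 0.758 and 0.883 CPM (log2 -5.34, SE 0.57, adjusted p = 0.000312). Dkk2, a secreted modulator of Wnt signalling, stood at 14.9, 17.8 and 13.8 against 0.466, 0.488 and 0.623 CPM (log2 -4.86, SE 0.23, adjusted p = 3.85e-06). Lad1, which encodes an anchoring filament protein, was at log2 -3.15, with no overlap between the lines. The lysosomal protease gene Ctsc was at log2 -3.39 and Nov, a matricellular gene, at log2 -3.34.

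The comparison at 1.0 µM was set beside the same comparison under vehicle, with the difference of the differences tested in 1 fit over the 18 libraries. All groups shared 1 spread in that fit, narrower than that of the more variable libraries at 1.0 µM and wider than that of the others. Its SEs and p-values for differences that involve 1.0 µM may therefore be too small. Those for the comparisons under vehicle and at 0.3 µM may be too large, so the counts of genes passing there may be too low. Of 13258 genes in that fit, the T-N1G effect was larger at 1.0 µM in 3038 (22.9%) and smaller in 2926 (22.1%), where smaller means shifted downwards. It was larger for 31 of the 33 subunits and smaller for none. Under vehicle 9 of the 33 were higher in T-N1G cells. There 2096 of the 12792 genes tested at 1.0 µM passed, higher and lower together. By chromosome, 2.53% to 13.7% of genes were higher under vehicle, leaving aside the 4 tested on the Y chromosome. The median of the α ring was 0.32 under vehicle against 1.89 at 1.0 µM. Psma5 was at log2 0.54 under vehicle, 2.32 at 0.3 µM and 3.03 at 1.0 µM (difference 2.51, SE 0.14, adjusted p = 2.56e-10). Vcp was at 0.17, 1.09 and 1.48 (difference 1.32, SE 0.13, adjusted p = 3.15e-07). Srxn1 was at 0.45, 3.39 and 3.34 (difference 2.91, SE 0.20, adjusted p = 6.04e-09). Nfe2l1 itself was at 1.98, 3.63 and 5.74 (difference 3.78, SE 0.18, adjusted p = 7.90e-11), so the line difference in fragments of this gene, from the transgene and the cells' own copy together, moved with dose as well, and its part in the other differences was not tested. Part of the antioxidant genes were already higher under vehicle, 7 of 13 for glutathione and thioredoxin (1 lower), 6 of 10 S-transferases, 2 of 8 for NADPH and 3 of 15 for quinones and xenobiotics. The effect was larger at 1.0 µM in 9, 5, 5 and 5 genes of these lists, and smaller in 3 of the NADPH list. The S-transferase median was 1.46 under vehicle against 2.06 at 1.0 µM. Of the genes past the test at 1.0 µM, 996 also passed under vehicle in the same direction and 237 in the opposite one.

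Most of the pattern was present at 0.3 µM. Of the genes called at 1.0 µM, 4380 were called at 0.3 µM in the same direction and 20 in the opposite one. At 0.3 µM 31 of 33 subunits were higher, where 6321 of the 12792 genes tested at 1.0 µM passed in either direction. The latter count joins higher and lower genes, so the background for higher genes alone is smaller. The effect was larger at 1.0 than at 0.3 µM in 914 of the 13258 genes (6.89%) and smaller in 742 (5.60%). For the subunits it was larger in 7 and smaller in none. That count depended on single libraries. It was 3 without T-N1G library 3 at 0.3 µM, 4 without T-N1G library 1 at 1.0 µM, 13 without T-N1G library 2 and 16 without T-N1G library 3 at 1.0 µM, and it was 11 with the replicate block. Of the 33 ATF4-led genes 9 were lower and 2 higher under vehicle, and 13 and 5 at 0.3 µM. Their effect was larger at 1.0 µM than under vehicle in 7 and smaller, meaning shifted downwards, in 13. The line difference in Stc2 was log2 -0.55 under vehicle, -1.66 at 0.3 µM and -2.60 at 1.0 µM. That in Hmox1, the heme oxygenase gene, was -0.30, -0.96 and -1.46. The change from vehicle to 1.0 µM passed for Stc2 (difference -2.03, SE 0.34, adjusted p = 9.19e-05) and for Hmox1 (difference -1.15, SE 0.24, adjusted p = 0.000789). The change from 0.3 to 1.0 µM did not pass for Stc2 (difference -0.92, SE 0.34, adjusted p = 0.081) or for Hmox1 (difference -0.49, SE 0.24, adjusted p = 0.192).

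**Figure D5:**
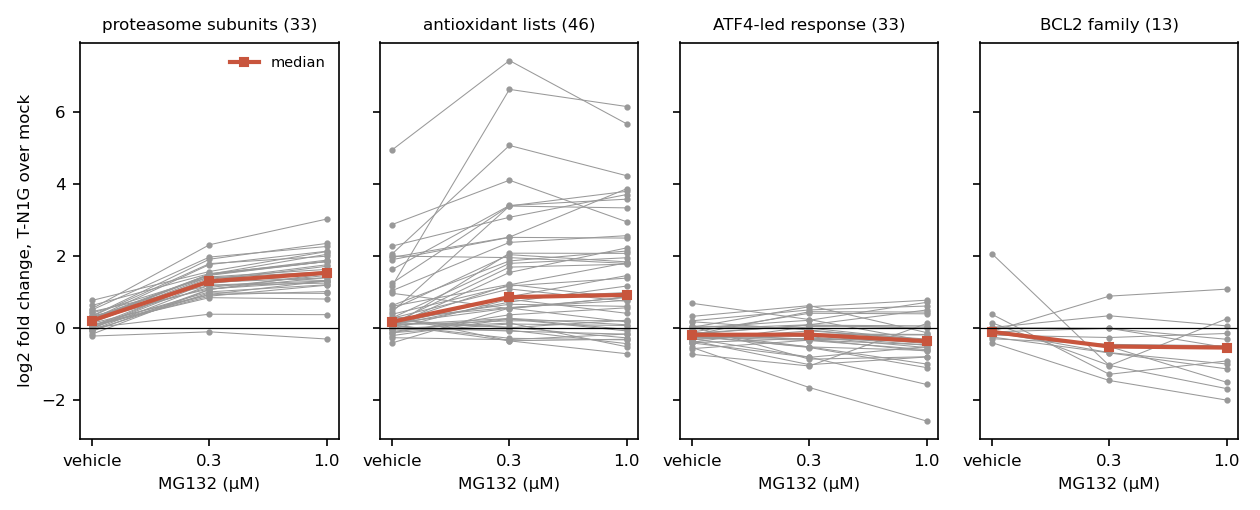
Log2 fold change of T-N1G over mock (vertical) under vehicle and at 0.3 and 1.0 µM MG132 (horizontal), 1 grey line per gene and red squares at the median, for 33 proteasome subunits, 46 antioxidant genes, 33 genes of the ATF4-led response and 13 BCL2-family genes. Most subunit lines rise between vehicle and 0.3 µM, as in Psma5 from 0.54 to 2.32, and the α ring median goes from 0.32 to 1.49. The ATF4-led genes have medians of -0.19 under vehicle, -0.19 at 0.3 µM and -0.37 at 1.0 µM, where Stc2 is lowest at -2.60.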

How the data were processed

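Poly(A) RNA libraries were made with a strand-specific kit, per the labels' protocols. Reads were converted with bcl2fastq 2.16.0.10, aligned to mm9 with TopHat2 2.0.8b and quantified with Cuffdiff 2.1.1, per the submitters' processing notes. For the annotation, read filters and counting strand, the setting is not given in the sources used here, so reads of overlapping genes may be shared. The authors deposited 2 kinds of value per gene and library: Cuffdiff's estimated counts of fragments, of which 98.16% to 98.23% were whole within 1e-06 in the 6 libraries and which were rounded here, and FPKM values, which are scaled for transcript length and depth. Estimated counts were used for all tests and the FPKM values only to rank subunits. The tables name libraries by condition and replicate from 0. They were matched to the titles by condition name and by taking replicate 0 as library 1, a link the files do not state, with N1 read as T-N1G and H-MG as 1.0 µM.

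Genes marked HIDATA were dropped. The 6 libraries were fitted with edgeR 4.0.16 (R 4.3.3; TMM, filterByExpr, robust glmQLFit and glmQLFTest), and 18 libraries in 6 groups for vehicle, 0.3 µM and the tests of differences between doses; p-values were adjusted by Benjamini-Hochberg over all tested genes. SE is the absolute log2 fold change divided by the root of F. Fits were tested on simulated data. For genes at 0 in a group, bounds use a floor of 3 fragments over the group, and 95% ratio intervals cover counting error only. Libraries of the same number paired across the lines: their deviations from the group means correlated at 0.63, 0.71 and 0.81. Pairs of different numbers were negative, from -0.59 to -0.11. As deviations within a line sum to 0 for each gene, this is largely built in and adds no evidence of pairing. Because of the matched pairs, a fit with the replicate number as a block was among the 14 alternatives. The others were all 18 libraries, DESeq2 1.42.0, limma 3.58.1 (voom with weights), library size only, RLE scaling, no filter, each library left out, and both libraries numbered 3 left out. The 40 gene lists, the genes named and the comparison itself were chosen with earlier results of these data known. The genes named were drawn from the parts of T-N1G and the deleted Mafs; the 15 largest changes each way with at least 5 CPM in the higher group and no overlap; the 8 largest CPM differences each way; all 33 subunits and up to 5 passing members each way per list, or the highest member of a list with none; and up to 8 genes each way called in opposite directions at 1.0 µM and under vehicle; not all of them are named. Hspa1a, Gpx1, Gpx4 and Txn1 were chosen after their values were seen. Gene positions are those of the deposited table (mm9). Promoters come from RefSeq (GRCm38.p6).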

Additional observations from a re-analysis of the deposited data

Results flagged for a closer look

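Of the 237 genes whose T-N1G difference passed in opposite directions at 1.0 µM and under vehicle, those with the largest difference between the conditions are given, 8 each way, and that difference passed as well. Values are the log2 difference at 1.0 µM minus that under vehicle, from edgeR's interaction test over 18 libraries. The first 8 turned from lower to higher with the inhibitor. These were Elfn1 (3.33), Ddx43 (2.94), Il7 (2.86), a cytokine gene, Spry4 (2.47), an inhibitor of growth factor signalling, Trim71 (2.23), Ube2o (2.19), which joins E2 and E3 activity in 1 ubiquitin enzyme, Acadvl (1.88), an enzyme of fatty acid oxidation, and Zfp612 (1.78). Ube2o was at log2 1.98 at 1.0 µM and -0.20 under vehicle. The SE of its difference, 0.09, rests on the spread shared by all groups and may be too small. The others turned from higher to lower. These were Rspo3 (-4.97), an amplifier of Wnt signalling, the transcription factor genes Tfap2a (-3.25), Foxo6 (-3.23) and Foxd1 (-2.90), Gm6093 (-2.90), Serpinb6b (-2.82), Fibin (-2.78) and Hs3st1 (-2.68). Rspo3 went from log2 3.86 under vehicle to -1.13. The call at 1.0 µM of Rspo3, Trim71, Zfp612, Foxd1, Fibin and Serpinb6b was lost under at least 1 alternative.

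Both parts of the transgene already differed without inhibitor, and the lines were farther apart at 1.0 µM. The log2 difference was larger by 3.78 for Nfe2l1 (SE 0.18) and by 2.76 for Mafg (SE 0.50).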

How the results depend on the processing

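The count of genes past the test at 1.0 µM was 5596 to 5901 with DESeq2, voom, library size only, RLE scaling or no filter, 8209 with all 18 libraries in the fit, and 4497 to 5648 with each library left out. With the replicate block 4344 genes were lower. Without both libraries numbered 3, 3790 genes passed and 1826 were lower, and 64.5% of the calls of the full comparison were kept. DESeq2 kept 96.5% of the calls in direction and the block all 5715. Of 5715 calls, 3433 held under all 14 alternatives. With all 18 libraries in the fit, 35 oxidative phosphorylation genes were higher, and 15 genes of G1/S and 19 cytosolic ribosomal proteins were lower. The counts of lists described in the report are given under the block beside each list they moved in. In lists not described there, the block moved cholesterol and fatty acid synthesis from 3 higher and 5 lower to 6 and 9, AP-1 genes from 3 and 3 to 7 and 7, fibroblast markers from 1 and 2 to 2 and 6, lower chaperonin subunits from 1 to 5, higher epithelial markers from 0 to 1, and lower genes of the CNC and small Maf list from 0 to 1. Among 283 named genes that passed, 218 held under every alternative, 65 were lost under at least 1 and 0 reversed. Maff, which did not pass, ranged from -0.35 to 0.061 with each library left out, and its sign reversed to 0.061 without T-N1G library 2. The comparison of 1.0 with 0.3 µM was the least settled. It gave 699 genes, 452 larger and 247 smaller, in a fit of only the 4 groups involved, and 574 larger without a filter. With each library left out it gave 1041 to 2805 genes, 482 to 1360 larger and 444 to 1445 smaller. The cause of these shifts was not tested. With 3 libraries per group and the spread seen at 1.0 µM, small differences were not detectable, and genes under about 1 CPM rest on few fragments.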

Other observations

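Chromosomes 11 and 4 held a larger share of lower genes than any other. On chromosome 11, 32.99% of tested genes were lower and 14.5% higher in T-N1G cells, with a median log2 difference of -0.23, and on chromosome 4, 33.9% were lower and 17.3% higher, with a median of -0.24. Over all chromosomes 22.4% were lower and 22.3% higher. The same chromosomes stood apart without inhibitor, where 25.6% of the genes on chromosome 11 and 22.5% of those on chromosome 4 were lower. The next largest share was 13.2%, on chromosome 6. Nfe2l1, Mafg, Krt19, Stc2, Pycr1, Gabarap and Psmd11 lie on chromosome 11, and Ddi2, Vcp and Prdx1 on chromosome 4. All 4 tested genes of the Y chromosome were higher at 1.0 µM, Ddx3y by log2 2.37, Uty by 2.17, Kdm5d by 1.47 and Eif2s3y by 1.05, and 2 of the 4 were higher under vehicle. Over all chromosomes 2096 of the 12792 genes tested at 1.0 µM passed under vehicle in either direction.

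Muscle and endothelial markers were listed as checks of the cell type. Muscle and fat markers summed to 15.2 to 21.1 CPM in mock and 41.5 to 55.0 CPM in T-N1G libraries, mainly through Ttn, the titin gene, at 2.18, 1.62 and 1.77 against 36.97, 22.1 and 35.8 CPM (log2 4.09, SE 0.25, adjusted p = 1.10e-05), while Myog was at 0. Endothelial markers summed to 64.3 to 82.9 CPM against 25.5 to 40.4 CPM, mainly through Kdr, a VEGF receptor gene, which was lower at 82.4, 59.6 and 65.1 against 28.9, 22.3 and 33.6 CPM (log2 -1.29, SE 0.18, adjusted p = 0.000596). Of the other 5 tested, 3 were higher from under 1 CPM in every mock library, Pecam1 by log2 2.55, Esam by 1.95 and Tek by 1.45, and the call of Tek was lost in 5 alternatives. Esam stayed under 1 CPM in every library of both lines, as did Tie1, Emcn, Cldn5 and Erg.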
